A study of Mus musculus with 13 samples.

Results

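The 10 genes described here encode the NF-kB subunits Nfkb1, Nfkb2, Rela, Relb and Rel, the IkB inhibitors Nfkbia, Nfkbib and Nfkbie, and the pathway inhibitors Tnfaip3 and Tnip1. They were chosen by gene symbol, and with earlier results of the same data known, because each had an H3K4me3 peak at its transcription start site (TSS) in both libraries and because Tnip1 had one of the lowest ratios between them. They are 10 of 18562 genes named in 6 ChIP-seq peak lists, and 10 of 12197 genes with a TSS H3K4me3 peak in both H3K4me3 lists. All lists come from 4T1, a mouse mammary tumor cell line of BALB/cJ origin. sg-Ctrl cells carried a non-targeting guide RNA, and KO cells were 1 clone made with Cas9 and a guide against Nup210, which encodes a nuclear pore protein. H3K4me3, a mark of active promoters, and H3K27me3, the Polycomb mark, were profiled in sg-Ctrl and in KO. NUP210 and a set of nuclear pore proteins recognized by 1 antibody (NPC) were profiled in sg-Ctrl alone. Each condition had 1 library, so no test over replicates was possible, and a difference between KO and sg-Ctrl cannot be told apart from a difference between clones or cultures. Intervals are 95% and cover counting error only.

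NF-kB factors are dimers of Rel-homology proteins that bind kB sites in promoters and enhancers. In resting cells the IkB proteins hold them in the cytoplasm until the IKK kinases mark IkB for degradation. Several inhibitors are themselves NF-kB targets, which gives the pathway negative feedback. A20, the product of Tnfaip3, edits ubiquitin chains on signalling proteins, and ABIN1, the product of Tnip1, binds ubiquitin chains and A20.

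The promoter sequences of the inhibitors with feedback roles are shown because NF-kB is known to activate these genes through kB sites in their promoters. RefSeq promoter windows (GRCm38.p6, 250 bases before to 50 bases after a start) were found for 8 of the 10 genes, in 11 windows. The NF-kB consensus, 10 bases long, was searched on both strands, with overlapping matches joined, and matches are in capitals. It occurred in 8.46% of 32851 mouse promoter windows, and in a window of 9.55% of 27025 genes. Among the 8 genes it was found for 6, namely Nfkb2, Rel, Nfkbia, Nfkbie, Tnfaip3 and Tnip1, and not in the windows of Rela and Nfkbib. Positions of peaks are those of the lists, which match GRCm38. The full windows of Tnip1 (chr11:54962891-54963190, minus strand), Nfkbia (chr12:55492598-55492897, minus strand) and Tnfaip3 at its upstream start (chr10:19015361-19015660, minus strand) read 5′ to 3′ as follows.
Tnip1: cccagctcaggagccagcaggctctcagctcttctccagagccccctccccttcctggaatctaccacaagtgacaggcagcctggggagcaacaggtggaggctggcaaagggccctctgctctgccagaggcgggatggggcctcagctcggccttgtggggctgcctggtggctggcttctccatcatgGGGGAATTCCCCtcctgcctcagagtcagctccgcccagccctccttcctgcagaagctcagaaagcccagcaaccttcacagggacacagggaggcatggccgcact
Nfkbia: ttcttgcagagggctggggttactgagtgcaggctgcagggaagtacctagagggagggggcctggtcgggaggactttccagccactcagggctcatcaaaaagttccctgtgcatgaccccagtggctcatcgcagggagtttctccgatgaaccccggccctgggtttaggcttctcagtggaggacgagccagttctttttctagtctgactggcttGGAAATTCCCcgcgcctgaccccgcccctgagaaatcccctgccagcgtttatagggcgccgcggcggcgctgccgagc
Tnfaip3: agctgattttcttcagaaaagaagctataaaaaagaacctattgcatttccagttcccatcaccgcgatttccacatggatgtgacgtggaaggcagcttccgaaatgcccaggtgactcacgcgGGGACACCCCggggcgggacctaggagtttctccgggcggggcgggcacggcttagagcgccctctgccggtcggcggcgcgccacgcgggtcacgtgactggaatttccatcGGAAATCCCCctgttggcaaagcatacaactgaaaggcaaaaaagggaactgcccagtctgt

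The match in Tnip1 is a palindrome of 12 bases lying 58 to 47 bases before the start. The match in Nfkbia lies 29 to 20 bases before it, and those in Tnfaip3 lie 125 to 116 and 12 to 3 bases before it. The sites of the remaining genes are given with 8 bases on each side. That of Rel lies 92 to 82 bases before the start and that of Nfkbie 106 to 97 bases before it. Of the 3 starts of Nfkb2, the one used here has a match 39 to 29 bases and another 11 to 2 bases before it.
Rel: taagcagcGGGAAATCCCCccccctcc
Nfkbie: agcaaacaGGGGGATTCCggaggggc
Nfkb2 distal: atcgtcacGGGAATTCCCCccctcggg
Nfkb2 proximal: ggccgaaaGGGGCTTTCCcggctgga

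The windows also differed in CpG content. The Tnip1 window held 4 CpG, more than 31.4% of all windows, where the median was 7. The windows at the starts of the other genes held 15 (Nfkbia) to 42 (Rel), apart from 6 in the second, downstream Tnfaip3 window. Over 8801 genes compared with a promoter window, 965 had the consensus, and the median of their log2 ratios between KO and sg-Ctrl was -0.49, against -0.50 for the 7836 without it. A ratio at least 2-fold lower was found for 8.39% of the former and 9.74% of the latter.

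In sg-Ctrl, 11018 H3K4me3 peaks held 26236314 reads, and in KO 10854 peaks held 24873356, although the KO library was 1.27 times as deep. Each gene's TSS peak was taken as reads per kb divided by the relative library size, called the level below, and the log2 ratio is that of the level in KO to the level in sg-Ctrl. The median log2 ratio of all 12197 genes was -0.50 and 88.7% of them lay below 0, so each ratio is also given relative to that median. Nup210 itself had 885 reads for sg-Ctrl and 913 for KO, with a log2 ratio of -0.41, and H3K4me3 at its TSS does not check a change within an exon. All 6 of 6 epithelial markers examined, Krt8 and Epcam among them, had a TSS peak in both lists, against 1 of 6 leukocyte markers (Cd14) and 0 of 4 endothelial markers.

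At a 2-fold threshold, Tnip1, Rel and Tnfaip3 had lower H3K4me3 in KO and the other 7 genes did not pass it, with no gene higher. Tnip1 stood far below the other genes, at 8.49-fold lower in KO, while Relb, Rela and Nfkbib differed by at most 1.19-fold. The count is 3 of 10 where 9.66% of all genes were called lower and 0.525% higher. As these ratios were known when the genes were chosen, nothing is read from that share. Tnfaip3 was the gene just inside the threshold at -1.12 and Nfkb1 the one just outside it at -0.92. The median log2 ratio of the 10 genes was -0.50, equal to that of all genes, and 5 of 10 lay below the all-gene median. Relative to the median, Tnip1 alone passed 2-fold, where 0.926% of all genes did, and the same held when the libraries were scaled by reads in shared TSS peaks, where 1.25% did. By total reads, Tnfaip3 and Tnip1 passed, where 7.63% of all genes did.

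**Figure D1:**
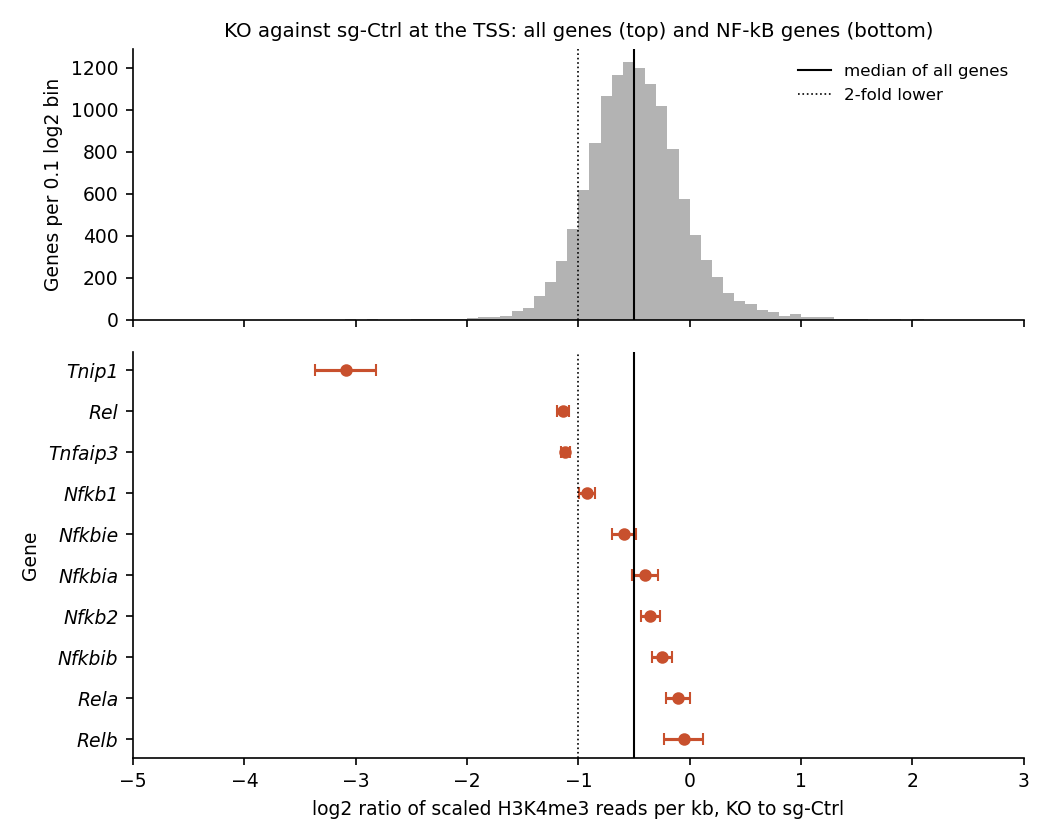
Top, number of genes per 0.1 bin of the log2 ratio of H3K4me3 level in KO to sg-Ctrl, over 12197 genes. Bottom, the same ratio for the 10 NF-kB genes with 95% counting intervals, on the same x axis. The solid line is the all-gene median of -0.50 and the dotted line a 2-fold lower level. Tnip1 at -3.09 lies apart from the other 9 genes, which lie between -1.14 and -0.05.

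Among the subunits, Rel and Nfkb1 had lower levels in KO relative to the rest of the genes, and Nfkb2, Rela and Relb did not. Rel encodes c-Rel, a transactivating subunit best known from lymphocytes. Its TSS peak (chr11:23767801-23772800 in sg-Ctrl) had 5903 reads for sg-Ctrl and 5325 for KO, and its level was 1113 against 507 scaled reads per kb. The log2 ratio was -1.14 (-1.19 to -1.08), or -0.64 relative to the median, and 5.24% of genes had a lower one. The peak was 5000 bp wide in sg-Ctrl and 7800 bp in KO, where its downstream edge lay 2600 bp further into the gene. By total reads of the peak, with no division by width, the log2 ratio was -0.49, where the median of all genes was -0.32, and by the deposited fold over IgG it was -1.13. Rel was thus lower by each of these measures, and past 2-fold by the level and by the fold over IgG but not by total reads.

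Nfkb1 encodes p105, the precursor of p50, which lacks a transactivation domain and forms the classical heterodimer with RelA. It had 4326 sg-Ctrl reads and 2790 KO reads, and levels of 784 and 414 scaled reads per kb. The log2 ratio was -0.92 (-0.99 to -0.85), or -0.42 relative to the median. The width was nearly the same, 5200 bp against 5000 bp, and total reads gave -0.98. Nfkb1 stayed just short of 2-fold lower by both measures, and the deposited fold over IgG gave -0.66.

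Nfkb2, the gene of p100 and p52 in the noncanonical branch, had 2167 reads in sg-Ctrl and 2610 in KO, with levels of 538 and 421 and a log2 ratio of -0.35 (-0.44 to -0.27). Relative to the median this was 0.15. Its peak reached 400 bp further on both sides in KO, 4600 bp against 3800 bp, and total reads gave -0.08. By the deposited fold over IgG the log2 ratio was -0.96, where the median of all genes was -0.48. The sg-Ctrl interval held 19 IgG reads and the wider KO interval 35. The direction at Nfkb2 therefore depended on the scaling and the measure.

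Rela, the main transactivating subunit p65, had 1227 sg-Ctrl reads and 1548 KO reads, and levels of 386 and 359. Relb, the partner of p52, had 473 and 627 reads, the fewest of the 10 genes in sg-Ctrl, and levels of 186 and 179. Their log2 ratios were -0.10 (-0.21 to 0.01) and -0.05 (-0.23 to 0.12), so a difference was not detectable at this depth under library-size scaling. Relative to the median they were 0.40 and 0.45, and 83.9% and 86.3% of genes had a lower ratio.

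**Figure D2:**
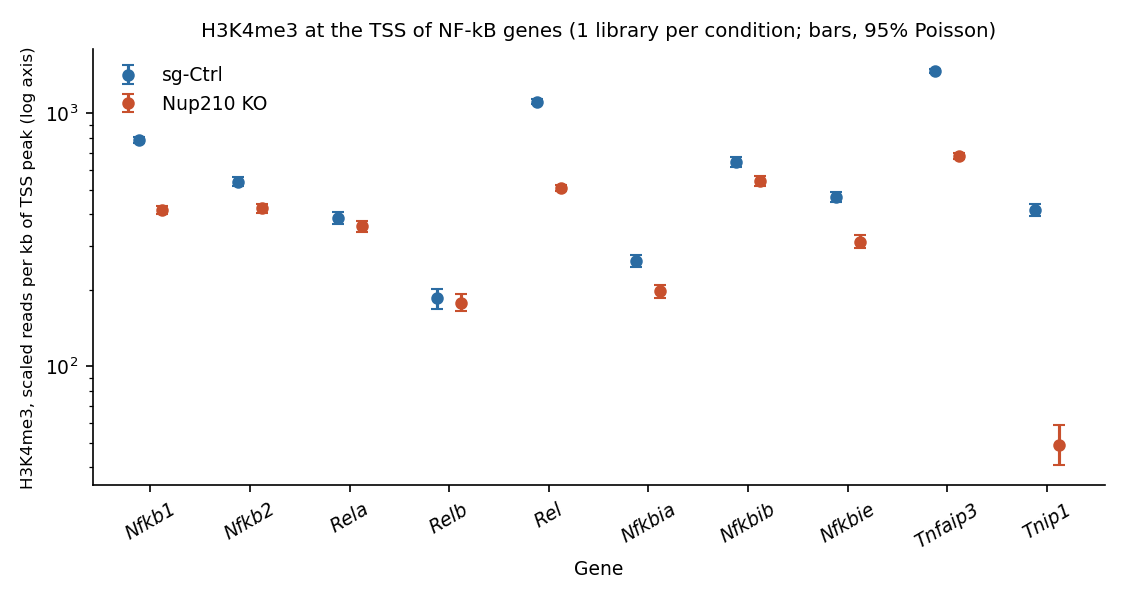
H3K4me3 level at the TSS of each NF-kB gene in scaled reads per kb of peak (log axis), in sg-Ctrl (blue) and Nup210 KO (red), 1 library each, with 95% Poisson intervals. Tnfaip3 had the highest level in both libraries. Tnip1 went from 416 in sg-Ctrl to 49.1 in KO, the lowest of the 10 genes there.

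By level, the IkB genes had ratios within 0.25 of the all-gene median. This did not hold by every measure, as given below. Nfkbia encodes IkBa, the rapidly resynthesized inhibitor. It had 1278 reads in sg-Ctrl and 1174 in KO, with levels of 262 and 198 and a log2 ratio of -0.40 (-0.52 to -0.29), or 0.10 relative to the median. Its peak was about as wide in both libraries, 4600 bp and 4400 bp, but lay differently, with the upstream edge 1000 bp further out and the downstream edge 1200 bp further in. The sg-Ctrl interval held 19 IgG reads and the shifted KO interval 40. The deposited fold over IgG was 63.4 and 21.8, a log2 ratio of -1.54. At 593 of 593 genes with the same interval in both lists the IgG reads were equal, so these IgG counts differ with the interval. The ratio that uses IgG thus placed Nfkbia past 2-fold, where 17.5% of all genes were, and the ratio of reads did not.

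Nfkbie, the gene of IkBe, had 1790 sg-Ctrl reads and 1176 KO reads, and levels of 469 and 312. The log2 ratio was -0.59 (-0.70 to -0.48), or -0.09 relative to the median. The KO peak ended 1000 bp earlier inside the gene, at a width of 2800 bp against 3600 bp. Total reads gave -0.95, where the median of all genes was -0.32. The deposited fold over IgG also gave -0.95, where that median was -0.48. Nfkbib, the gene of IkBb, had 2048 and 2186 reads in peaks of 3000 bp, levels of 644 and 541, and a log2 ratio of -0.25 (-0.34 to -0.16), or 0.25 relative to the median. Its peak is shared with Sirt2, whose TSS lies 0.227 kb away, and the reads of the 2 genes cannot be told apart.

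Tnfaip3 carried the strongest H3K4me3 of the 10 genes in both libraries. Its sg-Ctrl peak (chr10:19008601-19017400) was 8800 bp wide, wider than that of 96.2% of genes, and its level of 1472 was above that of 99.0%. It had 13740 reads in sg-Ctrl and 6950 in KO, where the level was 679. The log2 ratio was -1.12 (-1.16 to -1.08), or -0.62 relative to the median, and total reads gave -1.33. The KO peak, 7600 bp wide, was shorter by 800 bp upstream and 400 bp downstream. Even so, the KO level of Tnfaip3 was higher than that of 93.9% of genes.

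Tnip1 had a peak in the lower part of the range of all genes in sg-Ctrl and one of the weakest in KO. Its sg-Ctrl peak (chr11:54960601-54963400) had 1237 reads (1169 to 1308) over 2800 bp, and its KO peak (chr11:54961401-54963200) had 119 reads (98.6 to 142) over 1800 bp. The level was 416 in sg-Ctrl, above that of 32.2% of genes, and 49.1 in KO, above that of 0.402%. The log2 ratio was -3.09 (-3.37 to -2.81), and 1 gene of 12197 had a lower one. The difference does not rest on the scaling, as the ratio was -2.59 relative to the median, -2.66 when scaled by reads in shared peaks and -3.72 by total reads. IgG reads in the peak were 59 and 26, and the deposited fold over IgG was 19.8 in sg-Ctrl and 3.40 in KO, so a KO peak remained in the list. The KO peak still spanned the TSS and ended 800 bp earlier inside the gene, and it covered the window with the palindromic kB match printed above.

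**Figure D3:**
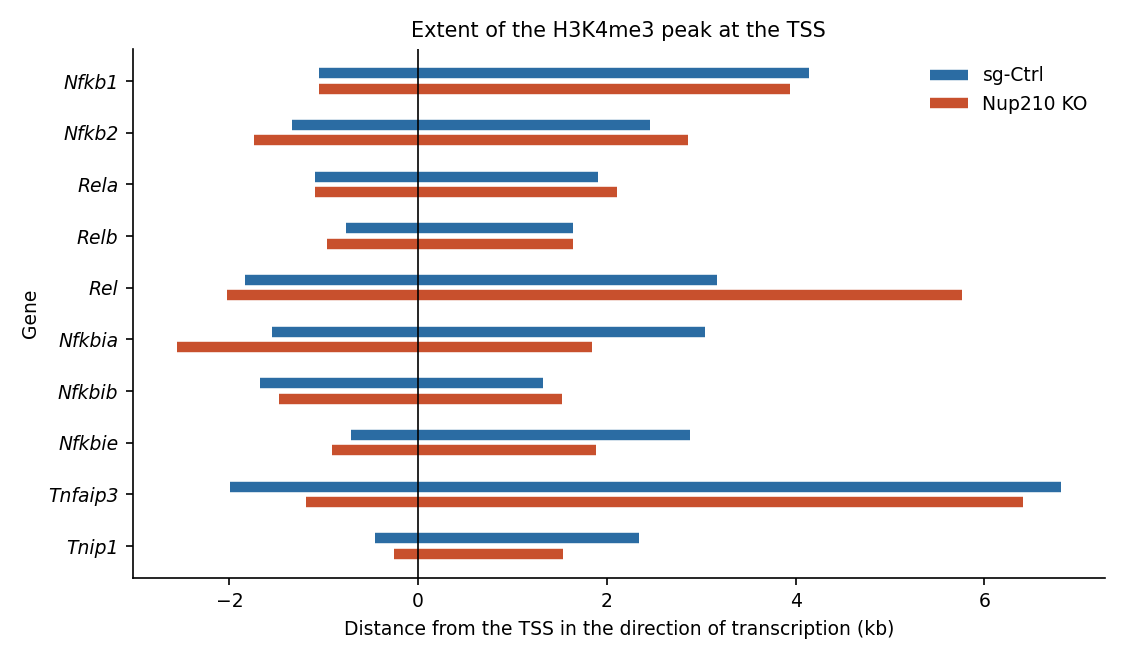
Extent of the TSS H3K4me3 peak of each NF-kB gene in sg-Ctrl (blue) and KO (red), in kb from the TSS in the direction of transcription. In KO, 4 peaks were wider, 5 narrower and 1 of equal width. Rel reached 2600 bp further downstream, and the peak of Tnip1 was 1000 bp shorter.

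Widths over the 10 genes had a median of 3700 bp in sg-Ctrl and 3800 bp in KO, where the medians of all genes were 3600 bp and 4200 bp and 63.1% of genes had a wider KO peak. Ordered by ratio, Tnip1 was lowest, followed by Rel and Tnfaip3, whose intervals overlap, and then Nfkb1. Then came Nfkbie, Nfkbia, Nfkb2, Nfkbib, Rela and Relb, where the interval of each gene overlapped that of the next. By level in sg-Ctrl the order was Tnfaip3, Rel, Nfkb1, Nfkbib, Nfkb2, Nfkbie, Tnip1, Rela, Nfkbia and Relb, and the only neighbours with overlapping intervals were Tnip1 and Rela. In KO, Tnfaip3 was again highest, and Tnip1 lay below Relb in the lowest place.

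Genes around Tnip1 did not share its ratio. Within 500 kb of its TSS, 10 other genes had a TSS peak in both lists, with a median log2 ratio of -0.50 and a range from -1.29 (Sparc) to 0.08 (Cdc42se2). The nearest, Anxa6 at 70.5 kb, was at -0.64. Hint1 and Lyrm7, which share a peak of 4429 sg-Ctrl reads and 6201 KO reads, were both at -1.05. Total reads of that peak were not lower in KO, also after scaling for depth, and its lower level rests on a wider KO peak. The median of chromosome 11 was -0.48, and relative to it Tnip1 was at -2.60.

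**Figure D4:**
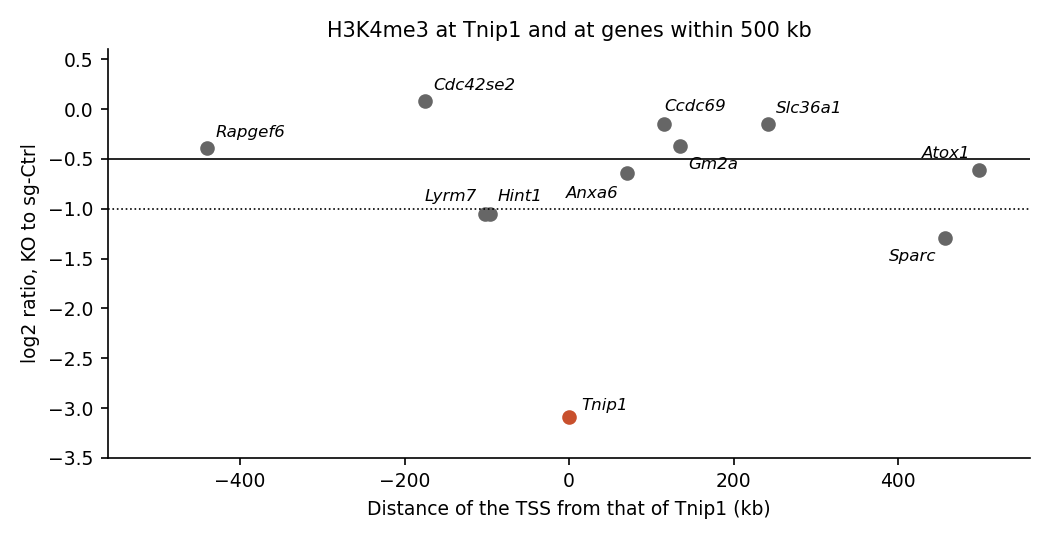
Log2 ratio of H3K4me3 level in KO to sg-Ctrl at Tnip1 (red) and at the 10 genes with a TSS within 500 kb (grey), by distance from the Tnip1 TSS in kb. The solid line is the all-gene median and the dotted line a 2-fold lower level. Tnip1 at -3.09 lies below all 10 neighbours, of which 3 passed the 2-fold line, with Hint1 and Lyrm7 on a shared peak.

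Rel, Tnfaip3 and Nfkb1 were also below each of their neighbours within 500 kb, 7, 4 and 6 genes in turn, whose median log2 ratios were -0.67, -0.22 and -0.39. Rela showed the opposite, with 48 of 50 neighbours below it. The 3 genes most like Tnip1 by distance over log2 level in both libraries, among 12086 genes compared, were C920009B18Rik with 1420 and 68 reads, Cd1d1 with 563 and 76 and Btbd19 with 1064 and 167. Their log2 ratios were -3.05, -2.97 and -2.78. This likeness rests on 2 libraries.

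On the gene bodies, no H3K27me3 peak met any of the 10 genes in sg-Ctrl or in KO, where 5.46% and 4.30% of all genes with a TSS H3K4me3 peak had one. These shares were 4.56% and 3.54% in the length range of the 10 genes, 3.24 to 107 kb. The lists hold only peaks on gene bodies, so the distances below are to the nearest such peak, and a nearer intergenic peak would not be seen. For Tnip1 the nearest listed H3K27me3 peak lay 205 kb away on Slc36a2 in both lists. Of the 3 genes most like it in H3K4me3, Cd1d1 had an H3K27me3 peak in both lists, C920009B18Rik in KO alone and Btbd19 in neither. The nearest H3K27me3 peak was nearer in KO for 3 of the 10 genes, further off for 4 and at the same distance for 3. For Nfkbie it was 1265 kb off in sg-Ctrl but 16.7 kb off in KO, on Tcte1, with 710 reads and a fold over IgG of 4.82. It moved off from 127 to 163 kb for Nfkb1, from 124 to 147 kb for Rel and from 159 to 177 kb for Tnfaip3. The H3K27me3 KO library was deeper, with 26811061 reads in peaks against 7719297, and its part in these distances was not tested.

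NUP210 peaks in sg-Ctrl met Nfkb1 and Rel, 2 of 10 genes where 26.3% of all genes had one. In Rel, the peak in the last part of the gene (chr11:23746001-23754000) had 228 reads, 131 IgG reads and a fold over IgG of 1.72 at a deposited FDR of 1.34e-13, a fold above that of 93.3% of NUP210 peaks. A second peak, which began 0.97 kb inside the gene, had a fold of 1.10 (FDR 0.0218). In Nfkb1 the peak lay 24.5 to 32.5 kb inside the gene (chr3:135659001-135667000), with 190 reads, 148 IgG reads and a fold of 1.27 (FDR 0.00115). NPC peaks met the same 2 genes, where 24.9% of all genes had one, with folds of 1.26 and 1.11 in Nfkb1 and of 1.02 (FDR 0.385) in Rel. No NUP210 or NPC peak met the other 8 genes, Tnip1 and Tnfaip3 among them. Of the listed NUP210 peaks, all on gene bodies, the one nearest to Tnip1 lay 120 kb away on Cdc42se2 with a fold of 1.02 (FDR 0.404). Intergenic NUP210 peaks are not in the list. All of these folds were under 2, where the median fold of all peaks was 1.19 for NUP210 and 1.10 for NPC. Both lists also hold peaks with a fold below 1, such as those on Gbf1 (0.887 for NUP210 and 0.959 for NPC). The shares over all genes count such peaks too.

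Of 89 further genes of the pathway in 5 lists, 74 had a TSS H3K4me3 peak in both lists, of which 11 were at least 2-fold lower in KO and 0 higher, where 9.66% and 0.525% of all genes were. Their median log2 ratio was -0.49 beside -0.50 for all genes, and relative to the all-gene median 2 of 74 were 2-fold lower, where 0.926% of all genes were. By total reads 15 of 74 were 2-fold lower, where 7.63% of all genes were. Of these, 9 were known targets. The others lay on chromosome 4 (Map3k7, Tlr4, Rnf11 and Zc3h12a) and chromosome 18 (Map3k8 and Malt1). How many of all genes on these chromosomes were lower was not counted, and a part of the chromosome in this count was not tested. The counts in the single lists are small and are to be read beside the shares over all genes. Among kinases, 1 of 11 was lower, near the share of 9.66% over all genes, with a list median of -0.58. It was Tab2 (-1.01, and -0.81 by total reads), which helps to activate TAK1. Map3k7, the gene of TAK1, was at -0.85 and Tab1 at 0.02. For Ikbkg, the gene of NEMO, the peaks compared did not overlap between the lists. Among 17 adaptors and ubiquitin ligases none was lower, with a median of -0.33, and Malt1 had the lowest ratio at -0.91.

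Receptors had peaks in both lists in 9 of 11 cases, and 1 was lower, the lipopolysaccharide receptor Tlr4, with 2497 reads in sg-Ctrl, 1110 in KO and a log2 ratio of -1.34. Cd40 was listed in sg-Ctrl alone, with 378 reads and 29 IgG reads. Tnfrsf11a, the gene of RANK, was listed in KO alone, with 151 reads and 13 IgG reads. Of 12453 genes in the sg-Ctrl H3K4me3 list and 12437 in the KO list, 12197 were in both. Of the other inhibitors and A20 partners, 13 of 15 had peaks in both lists and 1 was lower, Rnf11 (-1.07), which encodes a partner of A20. Tnip2, the gene of ABIN2, was at -0.39 with 887 sg-Ctrl reads and 1004 KO reads, and Tnip3 had no TSS peak in either list.

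Of 35 known NF-kB targets, 24 had peaks in both lists and 8 of these were lower, where 9.66% of all genes were, with a list median of -0.66. Besides Il1a, the lowest were the adhesion molecule gene Vcam1, with 1409 reads in sg-Ctrl, 162 in KO and a log2 ratio of -1.73, and Csf3, the gene of G-CSF, with 6767 and 2997 reads and a log2 ratio of -1.41. The highest were Bcl2l1 (0.25), Lif (0.12) and Junb (0.00), and the first 2 of these had narrower peaks and total-read ratios of -0.71 and -1.19. Csf2, Ccl2 and Cxcl3 were listed in sg-Ctrl alone, with 44, 119 and 275 reads against 12, 56 and 10 IgG reads. Of all 12453 genes in the sg-Ctrl list, 12197 were also in the KO list. A gene missing from 1 list has no ratio here. No TSS peak was listed for 8 targets, Tnf, Il1b and Icam1 among them. Ratios within the list ran from -1.90 to 0.25, and relative to the all-gene median 2 targets, Il1a and Vcam1, were 2-fold lower, where 0.926% of all genes were. The 8 lower targets include Cxcl1, Cxcl2, Cxcl5 and Cxcl10, which all lie on chromosome 5. By total reads Cxcl2 and Cxcl5 passed 2-fold, and Cxcl1 (-0.997) and Cxcl10 (-0.36) did not, where the median of all genes was -0.32. Cxcl10 had 1230 reads over 1600 bp in sg-Ctrl and 1221 over 2800 bp in KO, so its call rests on the wider KO peak.

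**Figure D5:**
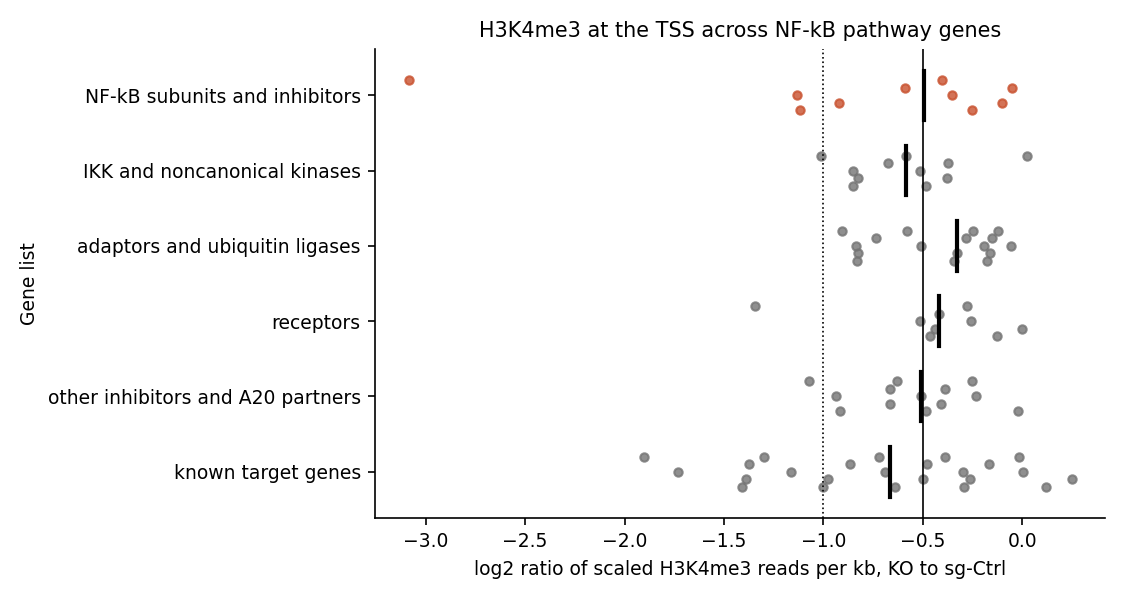
Log2 ratio of H3K4me3 level in KO to sg-Ctrl for the 10 NF-kB genes (red) and for the 74 genes of 5 other pathway lists with a TSS peak in both lists (grey), 1 point per gene. Thick bars are list medians, the thin line the all-gene median and the dotted line a 2-fold lower level. No pathway gene lay as low as Tnip1, and the known targets had the lowest list median, -0.66.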

How the data were processed

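The data were 6 lists of ChIP-seq peaks from 4T1 cells, each of 1 library. RNA-seq (4 samples) was not analysed here. The 3 IgG samples enter through the IgG reads of the lists. The authors called peaks with SICER against IgG, with a window of 200 bp (H3K4me3) or 1000 bp (H3K27me3, NUP210; for NPC, not given in the sources used here). The submitters' processing notes name Bowtie2. Each deposited peak has counts of ChIP reads and of IgG reads that are not normalized, a SICER p-value and FDR, and the ratio (fold) of ChIP to IgG after scaling by library size. H3K4me3 peaks are those within 4 kb of a TSS, the others those on gene bodies.

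Entries that name a peak more than once were merged. The ratio of ChIP to IgG library size was recovered from counts and fold (1.06 for sg-Ctrl and 1.35 for KO H3K4me3). At 593 of 593 genes with the same peak interval in both lists the IgG reads were equal, so both are on 1 scale. For a gene with several TSS peaks, the one with the most reads per kb was used. A ratio of at least 2-fold was the call. Read intervals are exact Poisson and ratio intervals exact binomial. They cover counting error, and total depth beyond these ratios is unknown.

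The genes, lists and tests were chosen with earlier results of these data known. Named are the 10 genes, at most 3 genes per end of each pathway list with at least 100 reads, genes listed in 1 library alone, the neighbours of Tnip1 within 500 kb and the 3 genes most like it. Map3k7, Tnip2, Ikbkg, Zc3h12a, Gbf1, Cxcl1, Cxcl2, Cxcl5, Cxcl10 and the marker genes were added after their values were seen. Alternatives were other scalings, total reads, fold over IgG, other choices of peak, stricter FDR, fold and overlap, and IgG subtraction. The ratio relative to the chromosome median was added after seeing the data. Positions are those of the lists. For 9 of 10 genes a start or end lay within 50 bp of GRCm38.p6, from which the promoter windows come. The ratio step was tested on simulated counts with set fold changes, on the same peak interval in both libraries. Changes of peak width or position, several peaks per gene and IgG reads were not simulated. Tools were Python 3.11.15 with pandas 2.3.3, numpy 2.4.6, matplotlib 3.10.9 and scipy 1.17.1.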

Additional observations from a re-analysis of the deposited data

How the results depend on the processing

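The count of 10 NF-kB genes at least 2-fold lower, 3, became 1 (Tnip1) when scaled by reads of shared TSS peaks, relative to the median of all genes and, in an alternative chosen after seeing the data, relative to the chromosome median. The count of 11 pathway genes became 2 under the same 3 settings. All-gene shares were then 1.25%, 0.926% and 0.844%. Total reads gave 2 of the 10 genes (Tnfaip3 and Tnip1) and 15 of the 74 pathway genes, where 7.63% of all genes were lower. Fold over IgG gave 4 of the 10 genes and 10 of the 74, where 17.5% of all genes were lower. At a fold over IgG of at least 2, 0 members had a NUP210 or NPC peak. The median fold of all peaks was only 1.19 for NUP210 and 1.10 for NPC. The share of all genes at that cutoff was not counted, so nothing is read from this 0. The cause was not tested, beyond the shift in scale that these settings make. Of 90 ratios of the 10 genes under 9 alternatives, 73 were negative and 17 positive, and 49 stayed within the counting interval. Tnip1 ran from -3.72 to -2.54. No paired analysis was possible because each condition has 1 library. Depth limited Tnip1 most, where 119 KO reads gave an interval from -3.37 to -2.81.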

Other observations

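The Tnip1 window is poor in CpG, and the ratios of other genes were set beside their CpG content. Among 414 compared genes with 0 to 4 CpG in the window, 69 (16.7%) were at least 2-fold lower in H3K4me3 in KO, against 11.2% of 721 genes with 5 to 9 CpG and 8.53% of 3552 genes with at least 25. The medians of these classes were alike, -0.50, -0.49 and -0.50. These are shares over genes of 1 library per condition, with no test.

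Gene-body peaks were counted over the 74 further pathway genes with a TSS H3K4me3 peak in both lists. H3K27me3 met 1 of them, Il6, in sg-Ctrl and in KO, where 5.46% and 4.30% of all such genes had a peak. In KO it also met Ccl20 and Ccl7, which had no TSS H3K4me3 peak. NUP210 peaks met 21 of the 74 genes, where 26.3% of all such genes had one. By list these were 7 of 13 other inhibitors and A20 partners, 5 of 24 targets, 4 of 11 kinases, 3 of 9 receptors and 2 of 17 adaptors, with no test of a difference between them.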
